A study of Mus musculus with 6 samples.

Results

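The report describes 10 genes of the Notch pathway, the receptors Notch1, Notch2 and Notch3, the ligands Dll1, Jag1 and Jag2, the transcriptional targets Hes1, Hey1 and Heyl, and the ubiquitin ligase Dtx4, in mouse myoblasts grown on fibronectin or on collagen I. They were found by gene symbol among the array's probe sets that carry exactly 1 symbol, which gave 19 probe sets of 45101 for 10 genes of 18195. Myoblasts, the dividing precursors of skeletal muscle, were prepared from the hindlimb muscles of C57BL/6JRj males aged 9 to 15 weeks and carried no allele or agent named in the labels. All 6 samples were cultured for 72 hours in Ham's F-10 containing 20% serum and 2.5 ng/ml bFGF, a growth factor that keeps myoblasts dividing, 3 on dishes coated with collagen I and 3 on fibronectin, and differed by the coating alone as far as the labels say. Total RNA of whole cultures was hybridised to an Affymetrix array, so fewer cells of a type and less RNA per cell cannot be told apart. Whether the 3 samples of a coating were separate cultures or animals is not stated in the labels, and the p-values cover only the spread among them, possibly a technical one.

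Notch signalling passes between cells that touch. A ligand of the Delta or Jagged family on 1 cell binds a Notch receptor on its neighbour, the receptor is cut by Adam proteases and then by gamma-secretase, and its intracellular part enters the nucleus, where it joins the DNA-binding protein Rbpj and switches on genes such as those of the Hes and Hey repressors. In muscle the pathway is known for holding stem cells and myoblasts back from differentiation, and Dll1 and Jag1 are among the ligands studied there. Ligands can also act on receptors of the same cell, where they dampen the signal.

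On fibronectin the ligands Dll1 and Jag1 were lower and the receptor Notch1 and the ligase Dtx4 were higher than on collagen I, while the classical target Hes1 had nearly the same signal on both. The fold changes were 1.98 and 1.82 for the falls of Dll1 and Jag1, and 1.38 and 1.75 for the rises of Notch1 and Dtx4. Notch2, Notch3, Jag2, Hes1 and Hey1 did not pass the test, and Heyl was too dim to test. Values are log2 signals of the brightest probe set of each gene, and a gene was tested if its mean over all 6 samples reached 2.33, the median over all probe sets. The test was limma's moderated test across 10942 genes with Benjamini-Hochberg adjustment, and a gene passed at an adjusted p under 0.05. Of the 9 members tested 2 passed as higher and 2 as lower, beside a background in which 40.1% of all genes tested passed, 19.9% as higher and 20.2% as lower. A count of 4 of 9 is close to that background, so it is no result about the members as a group. The median log2 change over the 9 members was 0.02, and over all genes tested 0.00399.

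The 250 bases before the annotated start are printed for the members past the threshold that the RefSeq promoter table held (GRCm38.p6), because the transcription factors of the pathway act on genes through DNA of this kind. They are written 5' to 3' on the strand of the gene, in lower case, with capitals for any match to 5 motifs searched on both strands: GTGGGAA, the core site bound by Rbpj, its longer form CGTGGGAA, then the E-box CACGTG, its variant CACGCG, and the N-box CACNAG, which Hes and Hey factors bind. A CGTGGGAA match always holds a GTGGGAA match. Dll1 has 2 starts in the table, and the one farther upstream is shown.
Notch1, chr2:26503823-26504072, minus strand: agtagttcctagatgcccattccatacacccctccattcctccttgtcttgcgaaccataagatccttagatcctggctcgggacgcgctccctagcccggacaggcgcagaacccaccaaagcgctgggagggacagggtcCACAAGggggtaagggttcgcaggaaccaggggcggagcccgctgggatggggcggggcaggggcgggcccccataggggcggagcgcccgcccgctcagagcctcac
Dll1, chr17:15376933-15377182, minus strand: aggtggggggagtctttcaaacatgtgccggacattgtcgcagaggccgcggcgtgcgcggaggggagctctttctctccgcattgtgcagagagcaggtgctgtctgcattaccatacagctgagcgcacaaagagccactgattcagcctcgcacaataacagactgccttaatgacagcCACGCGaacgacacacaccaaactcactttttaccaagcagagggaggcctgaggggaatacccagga
Jag1, chr2:137116521-137116770, minus strand: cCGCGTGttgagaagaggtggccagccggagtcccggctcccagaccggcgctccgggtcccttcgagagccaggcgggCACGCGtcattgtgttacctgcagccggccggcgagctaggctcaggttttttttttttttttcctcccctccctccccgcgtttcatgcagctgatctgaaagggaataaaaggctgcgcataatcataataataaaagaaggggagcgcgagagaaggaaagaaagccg

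Jag1 held 2 matches to CACGCG, at 249 and 171 bases before the start, and the upstream Dll1 sequence held 1, at 68 bases. The other Dll1 start, chr17:15375824-15376073, held none of the 5 motifs. Notch1 held a single CACNAG match, CACAAG, at 108 bases. Over all 32851 sequences of this length in the table, CACGCG was found in 7.62%, CACNAG in 36.7%, CACGTG in 6.02%, GTGGGAA in 5.42% and CGTGGGAA in 0.636%. Among members that did not pass, Notch2 held 1 CACGCG and 1 CACNAG match, Notch3 held 2 CACNAG matches and Jag2 none. Neither GTGGGAA nor CACGTG occurred in the 7 sequences found for the 6 receptor and ligand genes. Hes1, Hey1, Heyl and Dtx4 were not among the matched entries. G and C made up 56% of the upstream Dll1 sequence, 57.2% of that of Jag1, 66% of that of Notch1 and 87.2% of that of Jag2, against a median of 52.4% over the table.

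Notch1 (Entrez gene 18128), a receptor of muscle stem cells and myoblasts, had log2 signals of 7.19, 7.09 and 7.08 in the collagen samples and 7.47, 7.69 and 7.59 in the fibronectin samples. Every fibronectin sample was above every collagen sample, and the lowest of them was replicate 1. The means were 7.12 ± 0.06 and 7.58 ± 0.11 (SD, n = 3), a log2 change of 0.46 (SE 0.06, 95% confidence interval 0.31 to 0.61, adjusted p = 0.00111). A second, dimmer probe set of Notch1 went from 3.71 ± 0.09 to 4.09 ± 0.14, a log2 change of 0.38, and did not overlap between coatings either. In the fit over all 34958 probe sets with 1 gene, where 13.4% passed, 6.38% as higher and 7.07% as lower, both probe sets of Notch1 passed, with adjusted p of 0.00778 and 0.0278.

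Notch2 (Entrez gene 18129), a second receptor of myoblasts, had signals of 8.08, 8.15 and 8.02 on collagen and 8.22, 8.19 and 8.12 on fibronectin. The coatings overlapped. Its log2 change was 0.09, with a confidence interval of -0.03 to 0.21 (adjusted p = 0.221). Without collagen replicate 3 it was 0.06, and over single samples left out it lay between 0.06 and 0.12. A second probe set of Notch2 lay just below the median of all probe sets, at a mean of 2.31, and had a log2 change of -0.20 that did not pass, so the direction of Notch2 differed between its probe sets.

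Notch3 (Entrez gene 18131), a receptor that is also prominent in pericytes and smooth muscle, had signals of 4.98, 4.93 and 4.67 on collagen and 4.85, 5.10 and 5.01 on fibronectin. Collagen replicate 3 was the lowest of all 6, and the coatings overlapped. The log2 change was 0.12, with a confidence interval of -0.10 to 0.34 (adjusted p = 0.334). Without collagen replicate 3 it was 0.03, and over single samples left out it lay between 0.03 and 0.19. A dimmer probe set of Notch3 gave 0.01. Notch3 had the widest spread among the 3 receptors, with SDs of 0.17 on collagen and 0.13 on fibronectin. Whether the changes of Notch1, Notch2 and Notch3 differ from each other was not tested.

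Dll1 (Entrez gene 13388), the Delta ligand, had signals of 7.07, 7.12 and 7.10 on collagen and 5.94, 6.27 and 6.13 on fibronectin. All 3 fibronectin samples were below all 3 collagen samples. The means were 7.10 ± 0.02 and 6.11 ± 0.16 (SD, n = 3), a log2 change of -0.99 (SE 0.08, confidence interval -1.17 to -0.81, adjusted p = 0.000103). In size its change stood at the 98.6th percentile of all genes tested. Dll1 was measured by a single probe set, so no other probe set could be set beside it.

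Jag1 (Entrez gene 16449), a Jagged ligand, had signals of 6.10, 6.03 and 6.01 on collagen and 5.06, 5.17 and 5.31 on fibronectin, again with no overlap. The means were 6.04 ± 0.05 and 5.18 ± 0.12, a log2 change of -0.87 (SE 0.07, confidence interval -1.02 to -0.71, adjusted p = 9.4e-05). Jag1 had the smallest p among the members, at rank 190 of 10942 genes, with Dll1 at rank 205. A second probe set of Jag1 went from 3.03 ± 0.19 to 2.25 ± 0.18, a log2 change of -0.79 that passed in the fit over probe sets (adjusted p = 0.00728). The dimmest probe set, with a mean of 1.82 and so below the median of all probe sets, had a log2 change of -0.21 and did not pass (adjusted p = 0.116), although its samples did not overlap.

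Jag2 (Entrez gene 16450), the other Jagged ligand, had signals of 5.71, 5.55 and 5.57 on collagen and 5.46, 5.57 and 5.69 on fibronectin. The samples of the coatings were interleaved. The log2 change was -0.03, with a confidence interval of -0.20 to 0.13 (adjusted p = 0.727), which leaves out a fall of the size seen for Dll1 or Jag1. Its second probe set gave a log2 change of 0.05 that did not pass either.

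**Figure D1:**
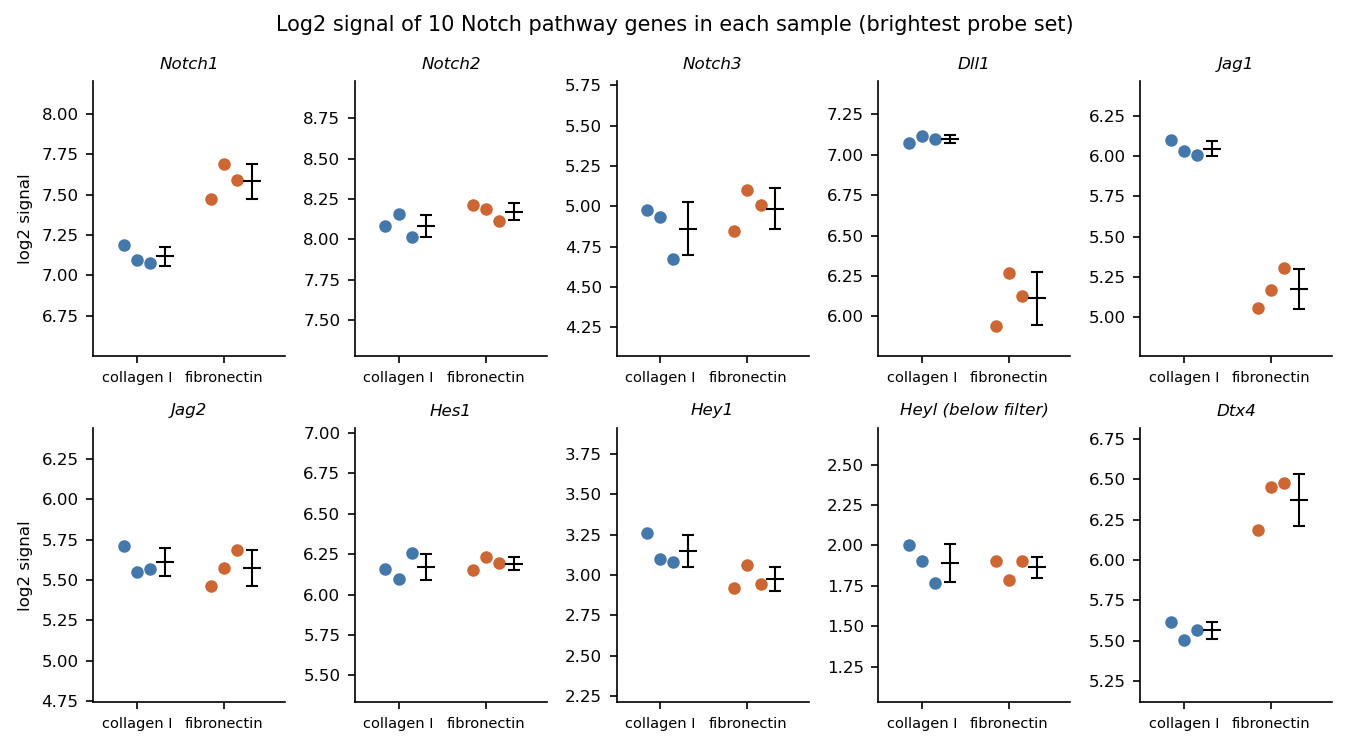
Log2 signal of the brightest probe set of each of the 10 genes, with 1 point per sample (blue collagen I, orange fibronectin, replicates 1 to 3 from left to right) and the mean ± SD of 3 samples in black; each panel spans the same number of log2 units around its own middle. Dll1 and Jag1 are lower and Notch1 and Dtx4 higher in all 3 fibronectin samples, the Hey1 samples do not overlap although its change did not pass, and the other 5 genes overlap.

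Hes1 (Entrez gene 15205), a repressor that is the usual readout of Notch activity, had signals of 6.16, 6.10 and 6.26 on collagen and 6.15, 6.23 and 6.19 on fibronectin. The fibronectin samples lay within the range of the collagen samples. The means were 6.17 ± 0.08 and 6.19 ± 0.04 (SD, n = 3), a log2 change of 0.02 (SE 0.05, adjusted p = 0.793). The confidence interval of -0.11 to 0.15 does not reach changes of the size measured for Notch1, Dll1, Jag1 or Dtx4, though the test does not show that Hes1 was the same on both coatings.

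Hey1 (Entrez gene 15213), a related repressor, had signals of 3.26, 3.10 and 3.08 on collagen and 2.92, 3.06 and 2.94 on fibronectin. Every fibronectin sample was below every collagen sample, the closest pair being 3.06 and 3.08, and absence of overlap was seen in 53.3% of all genes tested. The log2 change was -0.17 (SE 0.07, confidence interval -0.32 to -0.02), with an unadjusted p of 0.0302 and an adjusted p of 0.0686, so Hey1 did not pass. Its signal was not far above the filter of 2.33, a range in which the summarised signals compress changes.

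Heyl (Entrez gene 56198), a further Hey factor, had signals of 2.00, 1.90 and 1.77 on collagen and 1.90, 1.79 and 1.90 on fibronectin with its brightest probe set. These lay below the filter in all 6 samples, and 3 samples shared the same value. Its other 2 probe sets were dimmer still, with means of 1.49 and 1.25. None of the 3 passed in the fit over probe sets, with log2 changes of -0.03, -0.14 and 0.06.

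Dtx4 (Entrez gene 207521) encodes a ubiquitin ligase of the Deltex family, proteins that bind the intracellular part of Notch. It had signals of 5.61, 5.51 and 5.57 on collagen and 6.18, 6.45 and 6.48 on fibronectin, with no overlap. The means were 5.56 ± 0.05 and 6.37 ± 0.16 (SD, n = 3), a log2 change of 0.81 (SE 0.08, confidence interval 0.62 to 1.00, adjusted p = 0.000255). A second probe set went from 4.46 ± 0.03 to 5.01 ± 0.07, a log2 change of 0.56 that passed as well (adjusted p = 0.00197).

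Over all 19 probe sets, 14 had a mean at or above the median of all probe sets, 4 passed as higher and 3 as lower. These 7 are 36.8% of the 19, beside 13.4% of all probe sets with 1 gene, and in a fit limited to probe sets at or above the median 6666 of 19448 passed. The 13.4% also covers many dim probe sets, so it is not a like background for the 19, and no excess can be read from it. Where a gene had a probe set that passed, its other probe sets had changes of the same sign. Samples did not overlap between coatings in 9 of the 19, beside 32.8% of all probe sets with 1 gene, dim ones included, and 53.3% of all genes tested.

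**Figure D2:**
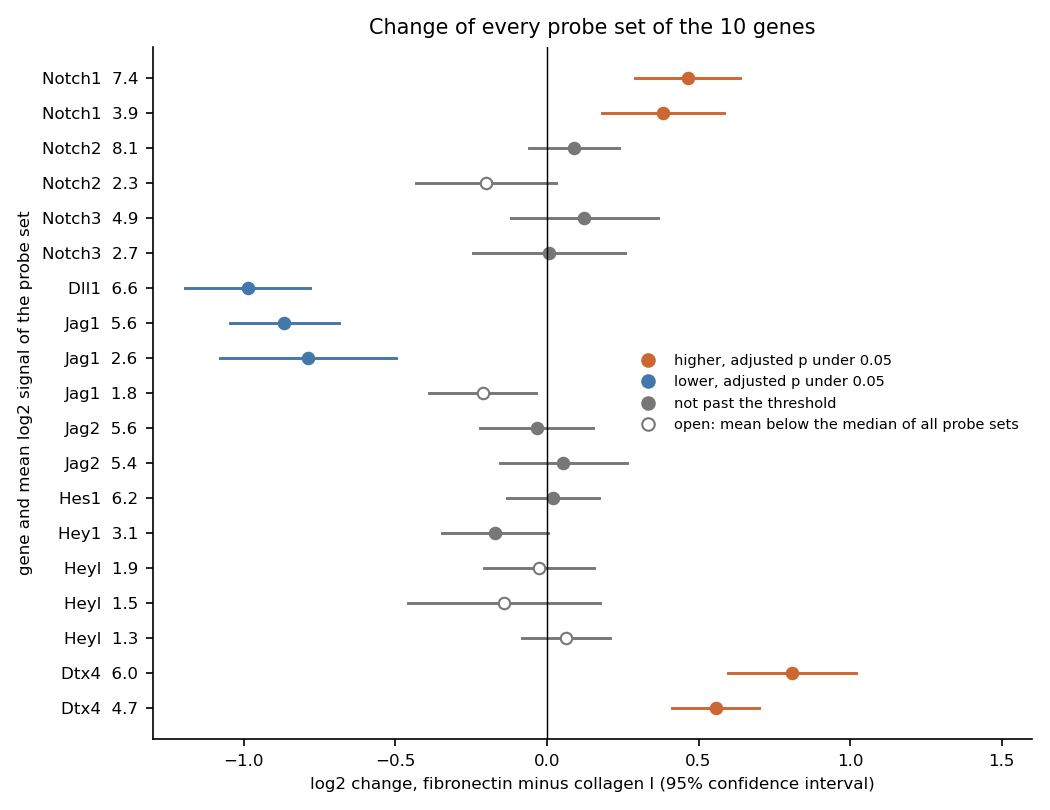
Log2 change (fibronectin minus collagen I) of each of the 19 probe sets with its 95% confidence interval from the limma fit over all probe sets with 1 gene; the number after each gene is the mean log2 signal of the probe set, and open points lie below the median of all probe sets. The probe sets of Notch1 and Dtx4 lie to the right of 0 and those of Dll1 and Jag1 to the left, with the dimmest Jag1 probe set nearest 0.

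For the members that changed, the fibronectin samples were more spread out than those on collagen. The SD on fibronectin against collagen was 0.16 against 0.02 for Dll1, 0.12 against 0.05 for Jag1, 0.16 against 0.05 for Dtx4 and 0.11 against 0.06 for Notch1, differences that were not tested. Genes outside the members showed both patterns, with 0.32 against 0.07 for Rgs5 and 0.04 against 0.05 for Mef2c, so a wider spread was not particular to the members. Fibronectin replicate 1 had the lowest signal of the fibronectin samples for all 4. It therefore stood farthest from the collagen samples for Dll1 and Jag1, and nearest to them for Notch1 and Dtx4. Without that sample the log2 changes were -0.90 for Dll1 and -0.81 for Jag1, and 0.52 for Notch1 and 0.90 for Dtx4, and all 4 still passed.

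**Figure D3:**
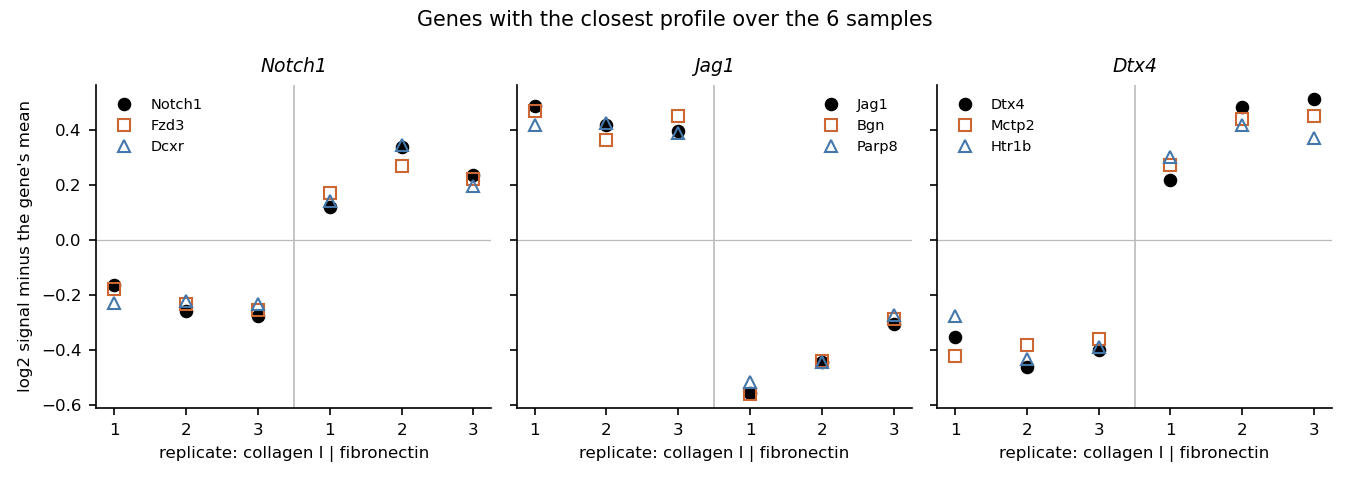
Log2 signal minus the gene's own mean in the 6 samples for Notch1, Jag1 and Dtx4 (black points) and for the 2 tested genes whose profile lay closest to each (open symbols). The closest genes lie near the member in all 6 samples, and all have their lowest fibronectin signal in replicate 1.

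For the member with the smallest p in each role, the genes with the most similar profile were taken by Euclidean distance between log2 values centred on each gene's mean, over 6 samples and 10941 other genes. Closest to Jag1 were Bgn, which encodes the matrix proteoglycan biglycan, at a distance of 0.0802 and Parp8 at 0.084, with log2 changes of -0.85 and -0.82. For Notch1 they were Fzd3, a Wnt receptor, at 0.0922 and Dcxr, a carbonyl reductase, at 0.0942, with log2 changes of 0.44 and 0.46. For Dtx4 they were Mctp2 at 0.147 and Htr1b, a serotonin receptor, at 0.197, with log2 changes of 0.77 and 0.73. The median distance to all other genes was 1.1 for Jag1, 0.615 for Notch1 and 1.03 for Dtx4. These distances describe the 6 samples and mostly follow the difference between coatings.

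The rest of the pathway was read from 6 lists of 68 genes by role, of which 63 had a matched probe set and 50 were bright enough to test. Of these 50, 5 were higher and 12 lower, or 34% beside the background of 40.1%, with a median log2 change of -0.01. No overlap was seen in 21 of the 50, or 42%, below the 53.3% of all genes tested. Among other receptors and ligands only the Delta-like proteins Dlk1 and Dlk2, which lack the domain that activates Notch and are known as modulators of it, were tested, and they moved in opposite directions. Dlk2 went from 4.58, 4.55 and 4.41 on collagen to 5.64, 5.57 and 5.35 on fibronectin, a rise of 2.01-fold (adjusted p = 0.00011). Dlk1 went from 5.06, 5.02 and 4.78 to 4.24, 4.25 and 4.04, a fall of 1.72-fold (adjusted p = 0.000455). Both probe sets are of types that can bind related transcripts. Among other genes named here, the same holds for Notch3, Mib2, Dtx2, Hes6, Col6a2 and Acta2. Notch4, Dll3, Dll4 and Dner were below the filter, with means between 0.85 and 2.05.

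Of 5 tested genes that add sugars to Notch or mature it 0 passed by limma, and 0 had an unadjusted p under 0.05, and the brightest of them, Poglut1 and Pofut1, had log2 changes of 0.07 and 0.02. Of 7 genes of receptor and ligand cleavage 2 fell and 0 rose, or 28.6% called beside 40.1% of all genes tested. Psenen and Psen2, both parts of gamma-secretase, fell by 0.25 and 0.34 on the log2 scale. The proteases Adam10 and Adam17 did not pass, at log2 changes of 0.02 and -0.06.

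Of 12 tested genes of endocytosis, ubiquitin ligases and inhibitors 2 rose and 3 fell, or 41.7% called beside 40.1% of all genes tested. Nrarp, which is itself induced by Notch and limits the signal, had signals of 2.15, 2.43 and 2.47 on collagen and 2.86, 2.78 and 2.70 on fibronectin. It rose 1.35-fold (adjusted p = 0.00698), near the filter. Fbxw7, a ligase that marks the active Notch fragment for destruction, rose 1.22-fold. Dtx3, another member of the Deltex family, fell by 0.35 on the log2 scale, opposite to Dtx4. Mib2, a ligase that acts on ligands, fell by 0.28. The brighter Mib1, its relative, did not pass, at a log2 change of 0.21 (adjusted p = 0.117). Dtx2 and the kinase Aak1 did not pass, at log2 changes of -0.12 and -0.09.

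Of 19 tested genes of the nuclear complex 2 rose and 3 fell, or 26.3% called beside 40.1% of all genes tested. Rbpj, the DNA-binding partner of Notch, was at 7.68 ± 0.05 on collagen and 7.69 ± 0.07 on fibronectin, a log2 change of 0.02 that did not pass, and neither did the corepressor Ctbp1 (0.02). Tle1 and Tle2, corepressors that Hes factors recruit, fell by 0.35 and 0.44 on the log2 scale. Their relatives Tle3, Tle4 and Tle5 did not pass, at log2 changes of -0.07, 0.01 and 0.09. The acetyltransferase Ep300 fell by 0.22, and Kat2a, another acetyltransferase, rose by 0.18, a call lost with its probe sets averaged (adjusted p = 0.0598). Of 5 other Hes and Hey relatives tested 3 fell and 0 rose, beside 20.2% of all genes tested that were lower. Bhlhe40, a related repressor, fell 1.51-fold from 4.16 ± 0.09 to 3.57 ± 0.15 and Hes6 fell 1.25-fold. Hes7 fell by 0.22 on the log2 scale with overlapping samples (adjusted p = 0.0432), and this call was lost in 10 alternatives, at adjusted p of 0.0528 to 0.129, among them leaving out any sample but collagen replicate 2. Hes5 and Bhlhe41 did not pass, with values of -0.01 and -0.18, although Bhlhe41 passed with averaged probe sets at -0.36 (adjusted p = 0.00763), with array weights at -0.26 (adjusted p = 0.0322) and without collagen replicate 1 at -0.29 (adjusted p = 0.0158). Without collagen replicate 2 its change was -0.08 and did not pass.

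**Figure D4:**
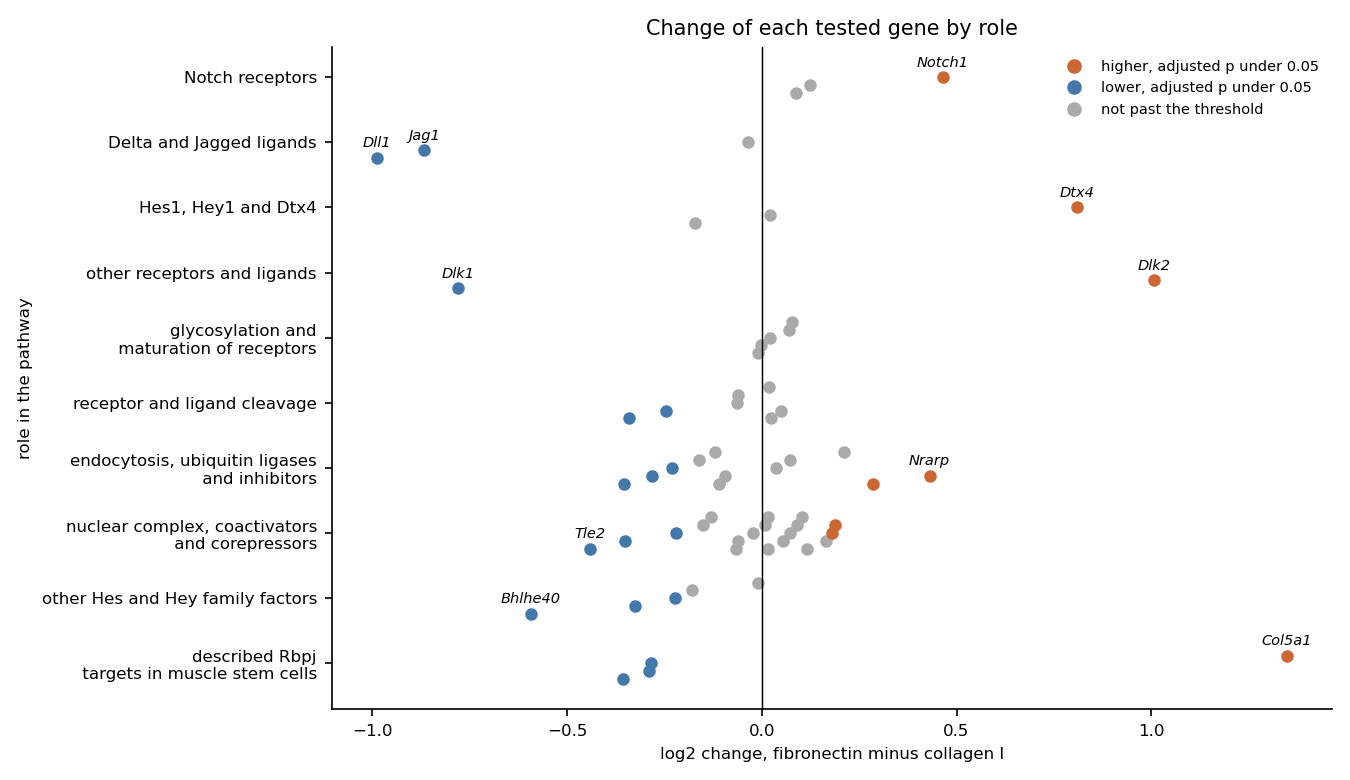
Log2 change (fibronectin minus collagen I) of each tested gene, with 1 row per role; orange points were higher and blue points lower at an adjusted p under 0.05, grey points did not pass, and vertical offsets within a row only separate points. Dll1 and Jag1 lie near -0.99 and -0.87, Dlk1 and Dlk2 lie on opposite sides of 0, and most genes of glycosylation, cleavage and the nuclear complex lie near 0.

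Genes described as targets of Notch with Rbpj in muscle stem cells also went in both directions. Col5a1, a chain of type V collagen, rose 2.54-fold, whereas Col5a3, Col6a1 and Col6a2 fell by 0.28, 0.29 and 0.36 on the log2 scale (adjusted p = 0.011, 0.0121 and 0.0378). Col5a3 was close to the filter, with means of 2.54 on collagen and 2.25 on fibronectin. All its fibronectin samples lay below the filter, so it was tested only because of its collagen samples. The call for Col5a3 was lost with an intensity trend and robust variance (adjusted p = 0.0533). The samples of Col6a2 overlapped, and its call was lost without the filter (adjusted p = 0.0881) and without collagen replicate 1, collagen replicate 3, fibronectin replicate 2 or fibronectin replicate 3, at adjusted p of 0.0952 to 0.114. Calcr, the calcitonin receptor of quiescent muscle stem cells, was below the filter on both coatings, at 0.30 ± 0.10 and 0.56 ± 0.13. Of the muscle lineage factors that Notch and Hey factors act on, Mef2c and Myog fell 1.89-fold and 1.78-fold, and Myod1 and Pax7 did not pass, at log2 changes of -0.06 and -0.13. Pax7 passed with averaged probe sets, at -0.25, and at -0.13 with the 75th percentile filter or with an intensity trend and robust variance.

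All 10 myoblast markers listed, among them Myod1, Myf5, Pax7 and Itga7, were above the filter in the cultures, with a summed linear signal of 5606 to 5847 on collagen and 5186 to 5401 on fibronectin. Markers of other cell types were fewer above the filter. Each sum covers every measured marker of its list, also those below the filter. The leukocyte list had 2 of 8 markers above the filter, and its summed linear signal was 47 to 53.4 on collagen and 32 to 38.1 on fibronectin, with Ptprc, Adgre1 and Itgam below the filter. The list of pericytes and smooth muscle, which includes Notch3 and the actin Acta2 of myoblasts, had 4 of 8 above the filter and sums of 1471 to 1529 and 1321 to 1390, with Pdgfrb and Myh11 below it. The glial list had 2 of 5 above the filter and sums of 41.4 to 44.9 and 25.7 to 29.6. The fibroblast list had 2 of 9 and sums of 25.7 to 27.1 and 27.2 to 31.2, with Pdgfra and Dcn below the filter. Its 2 markers above the filter passed in opposite directions, both dim. Cd34 rose from 2.20 to 2.79 and Thy1 fell from 2.71 to 2.38. The collagen samples of Cd34, at 2.16, 2.18 and 2.27, all lay below the filter. Cd34 therefore counted as above the filter only because of its fibronectin samples. The endothelial list, of cells rich in Notch ligands, had 1 of 10 above the filter and overlapping sums of 32.4 to 37.3 and 35 to 36.3, with Pecam1 and Cdh5 below the filter. The myoblast, leukocyte, pericyte and glial sums were lower on fibronectin and the fibroblast sum was higher, each without overlap between coatings. For fibroblasts the gap was narrow, 27.13 on collagen against 27.18 on fibronectin. Among single genes tested, 53.3% showed no overlap. Linear sums follow the brightest markers most, so they do not measure the RNA of a cell type. The brightest were Chrna1, which fell, for myoblasts, and Acta2, which rose, and Rgs5, which fell, for pericytes. Single markers did not all follow these sums. Of the 10 myoblast markers 2 passed as higher and 3 as lower, or 50% beside 40.1% of all genes tested. Chrna1, the brightest, fell from 11.13 to 10.81, Des from 6.80 to 6.57 and Ncam1 from 8.87 to 8.71. Vcam1 rose from 9.02 to 9.33 and Cdh15 from 6.07 to 6.31. In the lists whose sums were lower, other than that of myoblasts, 1 marker past the threshold fell in each: Cd68 from 4.63 to 3.36, Rgs5 from 9.07 to 7.84 and Ngfr from 4.64 to 3.25. Of the other markers above the filter in these lists, Csf1r (3.22 and 3.19), Sox10 (3.15 and 3.19), Cspg4 (3.29 and 2.94) and Notch3 did not pass and Acta2 rose from 9.84 to 10.06. The part of other cell types in the results was not tested.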

How the data were processed

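Expression was measured with an Affymetrix mouse array in 6 samples, 3 per coating, grouped by the sample titles. The authors deposited log2 probe set signals, made with Affymetrix Expression Console and RMA per the submitters' processing notes. No source used here gives versions, settings or scan dates, and no batch was tested. RMA equalises the distribution of signals across samples, so a shift shared by most genes would be removed, and it compresses changes of dim probe sets. Array signals give no counts, so the number of samples limits the precision, with a median SE of 0.057 log2 units. Sample medians lay between 2.30 and 2.39, and no pair of samples was identical.

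Probe sets were named from the platform annotation, updated through a RefSeq gene table of GRCm38.p6, in which 18033 of 18195 genes were found. 34958 probe sets had 1 gene, 932 had several and 9211 had no entry. Each gene was represented by its brightest probe set and tested at a mean of at least 2.33. The fit used limma 3.58.1 in R 4.3.3 (lmFit and eBayes, two-sided, no covariates, 4 residual and 3.8 prior degrees of freedom), was tested on simulated data, and adjusted p-values over all genes tested. An exact permutation test of 3 against 3 samples cannot go below 0.1 and was not run. Plots used matplotlib 3.10.9 in Python 3.11.15. Deviations of same-numbered samples had correlations of 0.101, -0.00927 and 0.0779, beside -0.139 to 0.0972 for differently numbered ones. These small values do not settle whether the samples were paired. The numbers were not used as pairs in the main fit, and a replicate block was run as an alternative.

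The members and lists were chosen with earlier results of these data known. The genes named were the members and the genes of closest profile. From each pathway or muscle list came up to 4 genes past the threshold by smallest p. Up to 2 of highest mean were added from those that did not pass. Mib1, Tle3, Tle4 and Tle5, cell type markers and genes below the filter were named after their values were seen. Alternatives were other filters, scalings, variance models and weights, averaged probe sets, a replicate block and leaving out each sample.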

Additional observations from a re-analysis of the deposited data

How the results depend on the processing

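The 4 members past the threshold numbered 4 in every alternative run, and Notch1, Dll1, Jag1 and Dtx4 each kept direction and call, with log2 changes of 0.41 to 0.52, -1.07 to -0.90, -0.93 to -0.62 and 0.68 to 0.90. Hey1 did not pass in any, at adjusted p between 0.053 and 0.183. Of 124 member values under alternatives 7 changed sign, all of genes that did not pass. Jag2 had log2 changes of 0.0196 with samples centred on their medians, 0.0101 with averaged probe sets and 0.00218 with array weights, and -0.0912 to 0.0213 when single samples were left out. Notch2 had -0.0558 with averaged probe sets, and Hes1 -0.0172 to 0.0638 when single samples were left out. Among the 33 pathway and muscle genes named by p or mean 13 of 447 values changed sign, again of genes that did not pass. Averaged probe sets gave 0.0422 for Adam17, 0.0395 for Myod1 and -0.0766 for Pofut1, and Hes5 had 0.00173 with quantile normalisation again, 0.0438 with samples centred and 0.0043 with array weights. Without single samples the ranges were -0.00715 to 0.0701 for Adam10, -0.00934 to 0.0394 for Ctbp1, -0.0811 to 0.0564 for Hes5, -0.00932 to 0.0661 for Pofut1 and -0.0183 to 0.0491 for Rbpj. The 17 pathway genes past the threshold became 8 of 31 tested with a filter at the 75th percentile, which tests fewer genes, and 14 to 18 without single samples. Their share of higher calls went from 29.4% to 41.2% with samples centred, and that of all genes from 49.6% to 64.3%. Genes past the threshold numbered 3433 to 4136 without single samples against 4384, and probe sets 2535 to 3373 against 4699. With the replicate number as a block, 4173 genes, 3463 probe sets, 18 pathway genes and 4 members passed. Dim signals limit what can be said of Heyl and Hey1.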
